A study of Mus musculus with 7 samples.

Results

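Clec4e, Clec4d, Clec7a, Clec10a, Clec4a2 and Clec4a3, which encode C-type lectin receptors of myeloid cells, were followed through 7 microarrays of untreated RAW264.7 cells, a mouse macrophage-like line. The list was chosen because of earlier results on these same arrays, in which some of these genes were higher and others lower in the arrays labelled Gfi1 knockout, so that contrast selected the members and their values are given as a description, without a test. All 6 were present among the 9999 genes analysed. There were 4 arrays labelled RAW GfI1-1, which the series describes as Gfi1 knockout, and 3 arrays labelled RAW WT, and both groups carry the time label T0 and were grown in the same medium with serum and antibiotics. GFI1 is a zinc finger repressor of transcription in blood cells. The titles name biological replicates, but neither labels nor series text say how Gfi1 was disrupted, whether the knockout arrays represent 1 clone, or what made the replicates separate, so all errors and p-values describe the spread between these arrays, which may be technical.

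C-type lectin receptors are membrane proteins that recognise sugars and other ligands on microbes and dying cells. Mincle and Dectin-1 signal through the kinase SYK and the adaptor CARD9, Mincle by way of the Fc receptor gamma chain and Dectin-1 by a tyrosine motif in its own tail. DCIR carries an inhibitory tyrosine motif (ITIM) that recruits phosphatases, and other lectins of this family serve mainly in binding and uptake.

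The samples as a whole set limits on these values. The only Gfi1 probe set had log2 signals of 4.93, 5.02, 3.97 and 3.97 in knockout replicates 1 to 4, against 2.66, 2.85 and 2.98 in wild-type replicates 1 to 3. The labelled target was thus higher in knockout (1.65, SE 0.30, limma adjusted p = 0.00447), but all 3 wild-type values lay under the limit of the lowest 5% of genes (3.5 to 3.54), which leaves the size uncertain. The labels do not say which part of the gene was altered, so this probe set is no check of them, and every direction given here rests on the labels. Knockout replicates 1 and 2 differed from each other with an SD of 0.16 (log2 difference over all probe sets) and replicates 3 and 4 with an SD of 0.14, while the SD between these pairs was 0.52 to 0.54. No label separates the pairs, and the 4 arrays were kept as 1 group. A second fit took wild type and each pair of similar knockout arrays as random blocks (estimated correlation 0.79), and called 4.48% of all genes higher and 4.56% lower. Median intensity per array was 95.5 to 96.5 in knockout and 93.8 to 101.0 in wild type. Of the macrophage markers, 9 of 10 were measured, and their summed signal was 14.35 to 14.41 on the log2 scale in knockout arrays and 14.77 to 14.80 in wild-type arrays. Lyz2, which encodes lysozyme, had the highest mean of them and differed by -0.45 (SE 0.08, adjusted p = 0.00374; adjusted p = 0.116 with the random blocks). Of the dendritic cell, neutrophil and B cell markers, 3 of 10, 1 of 11 and 1 of 6 were measured, and no T and NK cell or fibroblast marker was analysed here. Those with the highest mean were Cd83 (1.06, SE 0.42, adjusted p = 0.0801), Csf3r (-0.39, SE 0.15, adjusted p = 0.0727) and Ighm (-0.02, SE 0.21, adjusted p = 0.94). Of the 3 dendritic cell markers 1 rose, the chemokine gene Ccl22, named after its values were seen. It read 4.44, 4.36, 5.71 and 5.55 in knockout, against 3.64, 3.76 and 3.77 in wild type (1.29, SE 0.36, adjusted p = 0.0235; adjusted p = 0.0884 with the random blocks). The third of them, Itgax, lay lower in knockout and did not pass (-0.30, SE 0.11, adjusted p = 0.0645). The summed signal of these 3 markers was 8.92 to 10.28 in knockout and 8.51 to 8.61 in wild type, and its part in the lectin values was not tested. In such bulk RNA, fewer cells of a type and less RNA per cell cannot be told apart.

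The activating pair Clec4e and Clec4d was higher in the arrays labelled knockout, by 2.39-fold and 1.63-fold. The other 4 genes were lower, by 3.67-fold for Clec7a to 12.9-fold for Clec10a. Signals of the 2 groups did not overlap for any of the 6 members, and the same held for 54.5% of all genes. By the limma threshold (adjusted p of 0.05) 2 members were higher and 4 lower, beside a background of 21.5% of all genes higher and 21.6% lower. With the random blocks 0 members passed as higher and 4 as lower, beside 4.48% and 4.56% of all genes. Clec4e and Clec4d thus lost their calls there. Nothing is read from these shares, because the members were selected on this contrast. Macrophage markers moved with the lower lectins: 6 of 9 fell and 0 rose, with a median of -0.43 (3 lower and 0 higher with the random blocks), and their part in the lectin values was not tested.

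**Figure D1:**
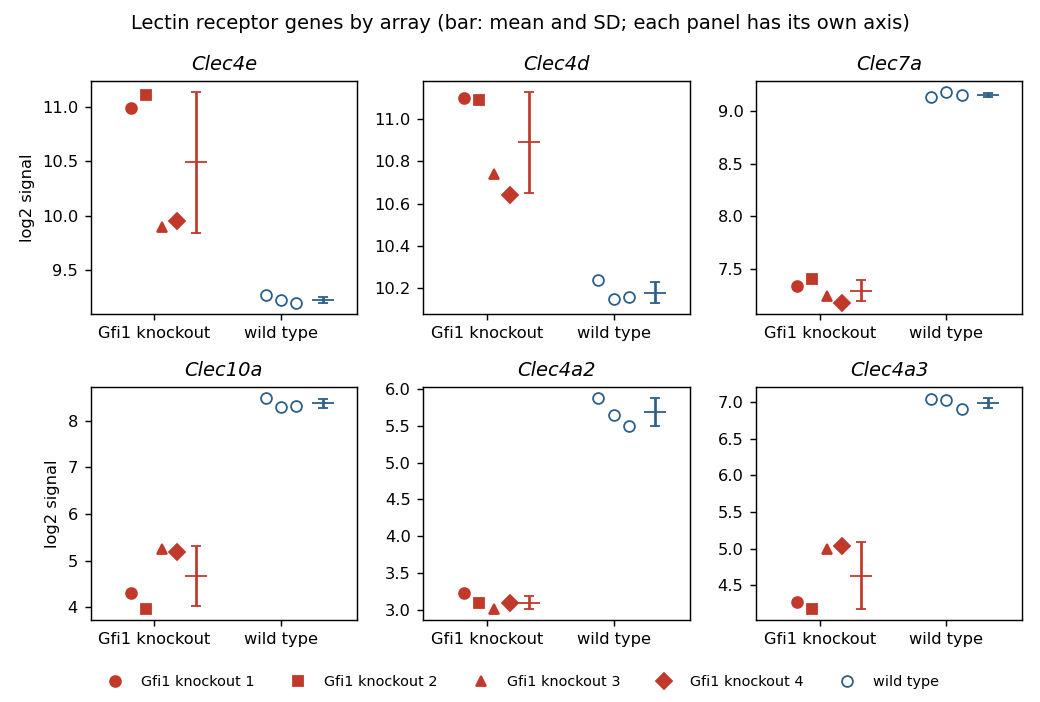
Log2 signal of the 6 lectin receptor genes in each array, with knockout arrays on the left (filled, 1 symbol per replicate) and wild-type arrays on the right (open), and bars at the group mean with the SD. Clec4e and Clec4d lie higher in all 4 knockout arrays, the other 4 genes lie lower, and Clec4e, Clec4d, Clec10a and Clec4a3 show a wide gap between knockout replicates 1 and 2 and replicates 3 and 4.

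Clec4e encodes Mincle, which binds mycobacterial cord factor and other glycolipids. Its log2 signal was 10.99, 11.11, 9.90 and 9.95 in knockout replicates 1 to 4, against 9.27, 9.23 and 9.20 in wild-type replicates 1 to 3. All 4 knockout arrays were above all 3 wild-type arrays, with replicates 1 and 2 clearly above replicates 3 and 4. The group means were 10.49 ± 0.65 (SD, n = 4) and 9.23 ± 0.03 (SD, n = 3), a difference of 1.25 (SE 0.33). By array the excess over the wild-type mean was 3.38-fold and 3.68-fold in replicates 1 and 2, and 1.59-fold and 1.64-fold in replicates 3 and 4. A second Clec4e probe set read 8.37, 8.29, 8.01 and 7.90 in knockout, against 6.88, 6.94 and 6.94 in wild type. Its difference of 1.22 was close to that of the first probe set, but its knockout arrays lay nearer to each other (SD 0.22).

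Clec4d encodes Dectin-3, also called MCL, a receptor that associates with Mincle and shares its glycolipid ligand. Its log2 signal was 11.10, 11.09, 10.74 and 10.64 in knockout arrays, against 10.24, 10.15 and 10.16 in wild-type arrays. As for Clec4e, replicates 1 and 2 were highest, but the difference was smaller, at 0.71 (SE 0.13; 10.89 ± 0.24, n = 4, and 10.18 ± 0.05, n = 3, SD). Each knockout array was between 1.37-fold and 1.89-fold above the wild-type mean. The suffix of the Clec4d probe set marks probes shared by more than 1 transcript, so related transcripts could add to its signal.

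Clec7a encodes Dectin-1, the receptor for fungal beta-glucan. It read 7.33, 7.40, 7.24 and 7.17 in knockout arrays, against 9.14, 9.19 and 9.16 in wild-type arrays. The knockout arrays lay close together. The group means of 7.29 ± 0.10 (SD, n = 4) and 9.16 ± 0.02 (SD, n = 3) differed by -1.88 (SE 0.07), and the single knockout arrays lay 3.38-fold to 3.98-fold below the wild-type mean.

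Clec10a encodes MGL1 (CD301a), a galactose-type lectin that binds and takes up ligands. Its signal was 4.31, 3.96, 5.25 and 5.19 in knockout arrays, against 8.49, 8.30 and 8.32 in wild-type arrays. The means of 4.68 ± 0.64 (SD, n = 4) and 8.37 ± 0.10 (SD, n = 3) differed by -3.69 (SE 0.32), the largest difference of the 6. Knockout replicates 1 and 2 were the lowest, at 16.6-fold and 21.3-fold below the wild-type mean, against 8.67-fold and 9.08-fold in replicates 3 and 4.

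Clec4a2 encodes DCIR, the inhibitory receptor of the group. It read 3.23, 3.09, 3.01 and 3.09 in knockout arrays, against 5.88, 5.65 and 5.50 in wild-type arrays, a difference of -2.57 (SE 0.10; 3.10 ± 0.09, n = 4, and 5.68 ± 0.19, n = 3, SD). All 4 knockout values lay among the lowest 5% of genes on their array, a limit of 3.44 to 3.49. Signal this low may not stand clear of background, which was not measured here, so the size of this difference is uncertain. Clec4a3 encodes DCIR3, a close relative. It read 4.27, 4.18, 5.0 and 5.04 in knockout arrays, against 7.04, 7.03 and 6.91 in wild-type arrays. The means of 4.63 ± 0.46 (SD, n = 4) and 6.99 ± 0.07 (SD, n = 3) differed by -2.37 (SE 0.23), and knockout replicates 1 and 2 lay below replicates 3 and 4, as for Clec10a.

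The members differed in how far apart the pairs of knockout arrays lay. For Clec4e and Clec4d the difference was 0.69 and 0.50 without knockout replicates 1 and 2, and 1.82 and 0.91 without replicates 3 and 4. Replicates 1 and 2 were farther from wild type than replicates 3 and 4 for Clec4e, Clec4d, Clec10a and Clec4a3. The same held for the arrays as a whole. Over all probe sets the SD of the log2 difference from wild-type arrays was 0.8 to 0.81 for replicates 1 and 2. It was 0.56 to 0.57 for replicates 3 and 4, so this order is not particular to the lectin genes. For Clec7a the 4 knockout arrays lay between -1.99 and -1.76 of the wild-type mean, and for Clec4a2 between -2.67 and -2.44, with replicates 3 and 4 at least as far out as replicate 1. Each member was on the same side of the wild-type mean in all 4 knockout arrays.

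The genes of 5 members lie on chromosome 6 and Clec10a lies on chromosome 11. Clec4a3, Clec4a2, Clec4d and Clec4e belong to a stretch of 9 neighbouring protein-coding genes, of which 5 were measured (order from the RefSeq annotation of GRCm38.p6). Along this stretch the measured genes came in the order Clec4a3, Clec4a2, Clec4n, Clec4d and Clec4e. The first 2 differed by -1.95 to -2.81 in the single knockout arrays, and the last 3 were above the wild-type mean in every knockout array. Clec4n encodes Dectin-2, a receptor for fungal mannans, and read 5.30, 5.22, 4.06 and 3.95 in knockout, against 3.84, 3.80 and 3.88 in wild type. Its arrays did not overlap, but the difference of 0.79 (SE 0.36) did not pass (adjusted p = 0.116), and replicates 3 and 4 were only 0.22 and 0.11 above the wild-type mean. A second Clec4n probe set read 5.02, 5.18, 3.26 and 3.29 in knockout, against 3.79, 3.22 and 3.23 in wild type, so there only replicates 1 and 2 stood clear of wild type. The nearest measured gene before the stretch, Necap1, a gene of clathrin-mediated endocytosis named here for its position, rose by 0.57 (SE 0.13, adjusted p = 0.0125), and its neighbour C3ar1, the C3a receptor gene, fell by 1.05 (SE 0.16, adjusted p = 0.00233). The 2 directions were therefore also found side by side outside the lectin genes. Clec7a lies farther along chromosome 6 in a second stretch of 7 genes, of which Clec1a and Clec7a were measured. Clec1a, a lectin gene with a role in recognising fungal melanin, fell by 1.12 (SE 0.14, adjusted p = 0.000815; adjusted p = 0.112 with the random blocks).

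**Figure D2:**
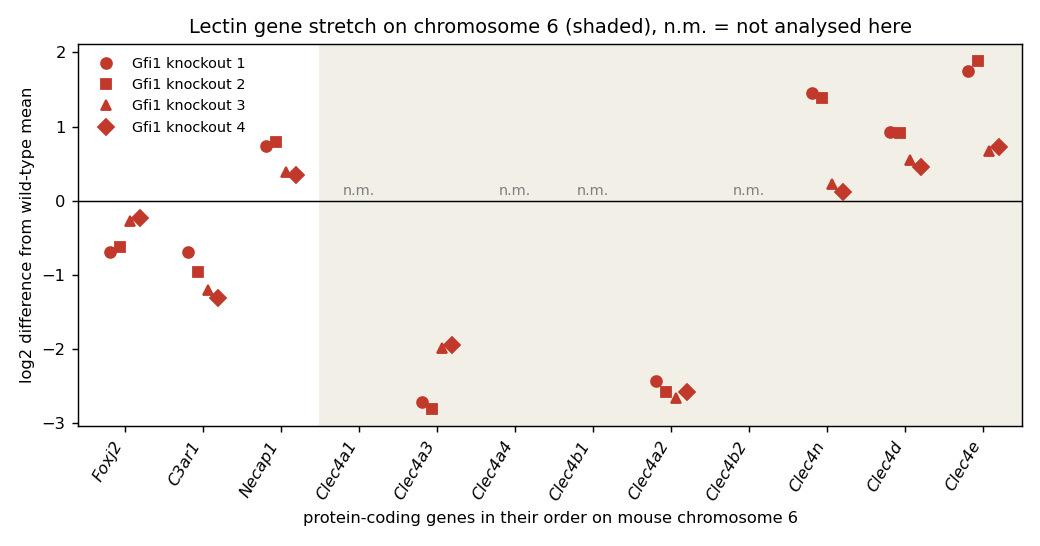
Log2 difference of each knockout array from the wild-type mean (vertical axis) for protein-coding genes in their order on chromosome 6 (horizontal axis, not to scale), with the lectin stretch shaded and 1 symbol per knockout replicate. Clec4a3 and Clec4a2 lie between -1.95 and -2.81, and Clec4n, Clec4d and Clec4e lie between 0.11 and 1.88.

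The sequences before the start sites are shown for these neighbours and for Clec7a, because genes that lie close together were set apart by direction here. RefSeq promoters (GRCm38.p6) were found for 5 of the 6 members. Each line gives the 250 bases before the annotated start, 5′ to 3′ on the strand of the gene, and capitals mark matches to the motifs named after the sequences. The regions are chr6:122952394-122952643 (plus strand), chr6:123122440-123122689 (plus), chr6:123261857-123262106 (plus), chr6:123289872-123290121 (minus) and chr6:129472780-129473029 (minus). For Clec4a3 and Clec7a the table holds 2 starts, and 1 is shown for each, for Clec4a3 the start with a motif match.
Clec4a3: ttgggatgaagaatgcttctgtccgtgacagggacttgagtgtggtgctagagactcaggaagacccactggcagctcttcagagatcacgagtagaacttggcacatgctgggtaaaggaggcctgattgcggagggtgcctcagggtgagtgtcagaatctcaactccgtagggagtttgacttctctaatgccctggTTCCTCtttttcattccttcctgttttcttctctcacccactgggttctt
Clec4a2: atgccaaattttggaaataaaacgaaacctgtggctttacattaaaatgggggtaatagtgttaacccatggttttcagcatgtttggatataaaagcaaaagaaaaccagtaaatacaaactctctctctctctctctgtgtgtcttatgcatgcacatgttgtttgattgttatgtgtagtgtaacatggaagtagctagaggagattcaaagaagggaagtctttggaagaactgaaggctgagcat
Clec4d: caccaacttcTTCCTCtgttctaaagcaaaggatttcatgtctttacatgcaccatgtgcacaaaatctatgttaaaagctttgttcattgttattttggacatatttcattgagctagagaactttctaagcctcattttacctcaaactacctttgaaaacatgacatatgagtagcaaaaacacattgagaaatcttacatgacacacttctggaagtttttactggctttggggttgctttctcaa
Clec4e: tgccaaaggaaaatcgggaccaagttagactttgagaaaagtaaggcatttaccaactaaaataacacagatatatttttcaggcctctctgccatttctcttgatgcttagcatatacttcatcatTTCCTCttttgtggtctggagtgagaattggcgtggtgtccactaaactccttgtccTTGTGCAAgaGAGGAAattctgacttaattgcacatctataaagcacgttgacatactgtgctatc
Clec7a: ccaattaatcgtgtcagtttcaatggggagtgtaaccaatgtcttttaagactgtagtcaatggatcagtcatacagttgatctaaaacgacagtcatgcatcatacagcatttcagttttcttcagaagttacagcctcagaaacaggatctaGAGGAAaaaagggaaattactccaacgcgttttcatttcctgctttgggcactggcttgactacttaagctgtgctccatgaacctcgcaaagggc
On both strands, 5 motifs were searched: GAGGAA for PU.1, the main transcription factor of macrophages, TTGCNNAA for C/EBP factors, GGGNNTTTC, part of the classical site, for NF-kappaB, TGANTCA for AP-1 and AATCAC for GFI1. GAGGAA or its reverse complement was found before Clec4a3, Clec4d, Clec4e and Clec7a, and in 23.3% of all 32851 promoters of the same length. That share is per promoter: both starts of Clec7a held a match, and the Clec4a3 start not shown held none. The Clec4e promoter held it at bases 123 to 118 and 56 to 51 before the start. TTGCNNAA was found before Clec4e only, at bases 66 to 59, and in 9.56% of all promoters, and the matches do not overlap. The NF-kappaB, AP-1 and GFI1 motifs were found in none of the members' windows, whereas 3.72%, 6.75% and 9.14% of all promoters held them. A match describes letters and not binding, and its absence concerns this window alone.

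Other lectin receptors of the list, chosen like all lists here with earlier results on these arrays known, were lower or did not pass. Of 44 listed genes 10 were measured. Of these 5 fell, 0 rose and 5 did not pass, with a median difference of -0.54, beside -0.01 over all genes and a background of 21.6% lower. Cd93, a surface lectin of myeloid and endothelial cells, fell by 1.51 (SE 0.12), Mrc1, the mannose receptor gene, by 1.11 (SE 0.12), the scavenger receptor gene Colec12 by 1.01 (SE 0.17) and Cd302 by 0.70 (SE 0.12). Mrc1 was among the lowest 5% of genes in all 7 arrays and Cd93 in all 4 knockout arrays, so their sizes are uncertain. As the mean of its probe sets Cd93 was at -1.21. Clec5a, which signals through the adaptor DAP12, read 8.52, 8.59, 8.04 and 8.0 in knockout, against 8.71, 8.66 and 8.66 in wild type, and did not pass (-0.39, SE 0.16, adjusted p = 0.0916). With the random blocks Cd93 alone of the 5 passed, beside 4.56% of all genes lower. Leaving out dim genes left 1 of these calls, Cd302, since the other called genes were dropped before that fit.

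The adaptors that associate with activating lectins were lower in the arrays where Clec4e and Clec4d were higher. Fcer1g encodes the Fc receptor gamma chain, on which Mincle and Dectin-3 depend. It read 11.36, 11.37, 10.93 and 10.96 in knockout, against 11.85, 11.82 and 11.85 in wild type, and fell by 0.69 (SE 0.13, adjusted p = 0.00536; adjusted p = 0.0522 with the random blocks). Replicates 3 and 4, with the smaller excess of Clec4e, had the lower Fcer1g. Tyrobp, which encodes the adaptor DAP12, read 11.81, 11.74, 11.74 and 11.69 in knockout, against 12.61, 12.71 and 12.68 in wild type (-0.92, SE 0.06, adjusted p = 6.57e-05). The kinase gene Syk went both ways within the knockout group, with 7.48, 7.53, 5.43 and 5.50, against 6.72, 6.43 and 6.45 in wild type. Replicates 1 and 2 lay 0.95 and 1.00 above the wild-type mean and replicates 3 and 4 lay 1.10 and 1.03 below it (group difference -0.05, SE 0.59, adjusted p = 0.955). The split was not tested, since no label defines it.

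Of 35 genes listed for ITAM adaptors (ITAM is the activating tyrosine motif), SYK and CARD9 signalling, 28 were measured, of which 11 fell, 4 rose and 13 did not pass, with a median of -0.08, beside 21.6% of all genes lower and 21.5% higher. The largest change was in Blnk, an adaptor phosphorylated by SYK, which read 6.02, 6.08, 5.99 and 6.08 in knockout, against 8.92, 8.74 and 8.85 in wild type (-2.79, SE 0.07, adjusted p = 3.97e-06). Lcp2 encodes SLP-76, the related adaptor. It rose by 1.29 (SE 0.09, adjusted p = 9.72e-05; 0.76 as the mean of its probe sets), so these 2 related adaptors moved in opposite directions in every knockout array. The Src family kinase gene Fgr fell by 1.23 (SE 0.09), with a difference of -0.89 as the mean of its probe sets. Pik3ap1, which encodes the phosphoinositide 3-kinase adaptor BCAP, rose by 0.86 (SE 0.07). With the random blocks 4 of the list passed as lower and 2 as higher, beside 4.56% and 4.48% of all genes.

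Inhibitory receptor genes other than that of DCIR were also lower in part. Of 24 genes listed for ITIM receptors and their phosphatases 18 were measured, of which 8 fell, 2 rose and 8 did not pass (median -0.12), beside 21.6% of all genes lower and 21.5% higher. The list also holds Cd200r1 and the adaptor genes Dok1, Dok2 and Dok3, which encode neither ITIM receptors nor phosphatases. Counts of ITIM genes given below are counts over this whole list. Cd300a, an inhibitory receptor for phosphatidylserine and phosphatidylethanolamine, read 5.75, 5.82, 6.28 and 6.2 in knockout, against 8.39, 8.44 and 8.35 in wild type. It fell by 2.38 (SE 0.14), but the difference was -1.61 as the mean of its probe sets. Pirb, which encodes an inhibitory receptor for MHC class I, fell by 2.29 (SE 0.13), Sirpa, the receptor gene for CD47, by 1.38 (SE 0.07; -0.55 as the mean of its probe sets) and Cd300lf by 1.17 (SE 0.14). Cd200r1, the CD200 receptor gene, fell by 1.17 (SE 0.34, adjusted p = 0.0292), a call that ended with the random blocks (adjusted p = 0.176), without knockout replicate 4 (adjusted p = 0.0543) and without wild-type replicates 1, 2 or 3 (0.105, 0.0684 and 0.0679), and its difference was -0.61 without knockout replicates 3 and 4. Ptpn6 encodes SHP-1, the phosphatase recruited by ITIMs. It read 9.51, 9.47, 10.01 and 9.95 in knockout, against 9.58, 9.53 and 9.49 in wild type, and did not pass (0.20, SE 0.15, adjusted p = 0.31). With the random blocks 5 of the list passed as lower and 1 as higher, beside 4.56% and 4.48% of all genes. The 1 higher gene there was Milr1, an inhibitory receptor gene named after its values were seen. It rose by 1.10 (SE 0.19, limma adjusted p = 0.0033), and its adjusted p with the random blocks was 0.0279.

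**Figure D3:**
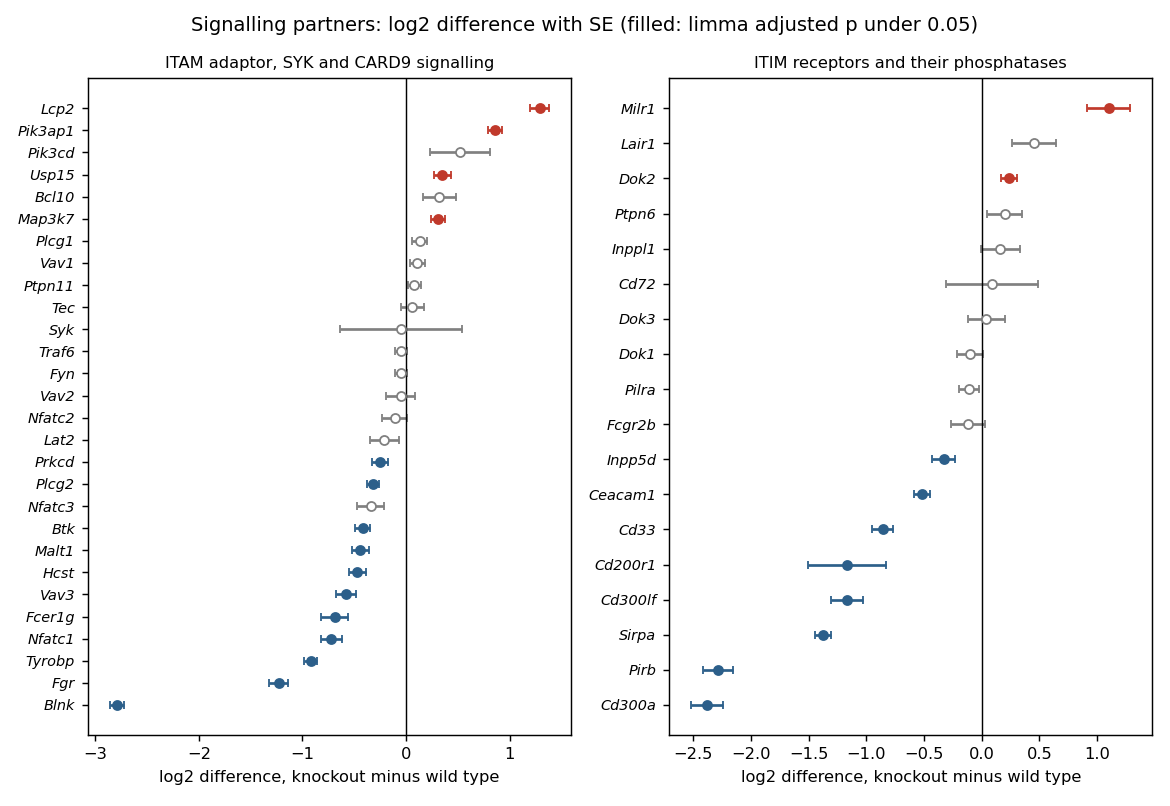
Log2 difference (knockout minus wild type, horizontal axis) with its SE for each measured gene of the ITAM, SYK and CARD9 list (left) and of the ITIM and phosphatase list (right). Filled points passed the limma threshold (red higher, blue lower), and open grey points did not. Blnk at -2.79 and Lcp2 at 1.29 mark the ends of the left list, and Cd300a at -2.38 is lowest on the right.

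Genes reported to be switched on when Dectin-1 or Mincle binds its ligand were largely higher in these untreated cells. Of 22 listed genes 16 were measured, of which 11 rose, 2 fell and 3 did not pass (median 3.10), beside 21.5% of all genes higher and 21.6% lower. With the random blocks 8 passed as higher and 1 as lower, beside 4.48% and 4.56% of all genes. The list medians were 3.85, 3.86, 1.67 and 1.69 in knockout replicates 1 to 4. Replicates 1 and 2 were thus above replicates 3 and 4, as in both Clec4e probe sets. Over all probe sets, too, replicates 1 and 2 were farther from wild type, so nothing is read from this shared order. Tnf read 10.45, 10.47, 9.98 and 9.77 in knockout, against 6.54, 6.74 and 6.51 in wild type (3.57, SE 0.19, adjusted p = 2.76e-05). The chemokine gene Ccl3 had the highest mean of the list, at 13.13, 13.13, 11.92 and 12.01 in knockout and 9.29, 9.27 and 9.28 in wild type (3.27, SE 0.34). The 4 other genes of the list with the largest changes were Ptgs2, Cxcl2, Il1b and Il6, at 6.18, 4.95, 4.05 and 3.94. Il6 was among the lowest 5% of genes in all 3 wild-type arrays, so its size and rank are uncertain. Its call (adjusted p = 0.0212) ended with the random blocks (0.0621) and without wild-type replicate 1, 2 or 3 (0.0667, 0.0647 and 0.0674), and its difference was 2.09 without knockout replicates 1 and 2. Many stimuli other than lectin ligands are known to switch on the same genes.

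Transcription factors of myeloid cells, some of them linked to these receptors, were found on both sides. Of 17 listed genes 13 were measured, of which 4 rose, 5 fell and 4 did not pass (median 0.06), beside 21.5% of all genes higher and 21.6% lower. Cebpb encodes C/EBP-beta, known to be required for Mincle induction in mouse macrophages. It read 10.58, 10.55, 10.44 and 10.45 in knockout, against 10.17, 10.25 and 10.18 in wild type, and rose by 0.31 (SE 0.06, adjusted p = 0.00787; adjusted p = 0.236 with the random blocks). Its relative Cebpd rose by 1.01 (SE 0.31, adjusted p = 0.0354), but it was highest in replicates 3 and 4 (9.10 and 9.15, against 8.11 and 8.02 in replicates 1 and 2), unlike Clec4e. That call ended with the random blocks (adjusted p = 0.152), without knockout replicate 3 or 4 (0.061 and 0.0589) and without wild-type replicate 1, 2 or 3 (0.0723, 0.107 and 0.106), and its difference was 1.54 without knockout replicates 1 and 2 and 0.49 without replicates 3 and 4. Cebpa, the family member of resting myeloid cells, fell by 1.49 (SE 0.20), and Klf4, which acts with STAT6 in alternative activation, fell by 1.43 (SE 0.19). Hif1a rose by 0.86 (SE 0.07; 0.54 as the mean of its probe sets). Maf fell by 2.77 (SE 0.14; -1.50 as the mean of its probe sets), to a signal among the lowest 5% in all 4 knockout arrays. With the random blocks 1 of the list passed as higher and 3 as lower, beside 4.48% and 4.56% of all genes.

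**Figure D4:**
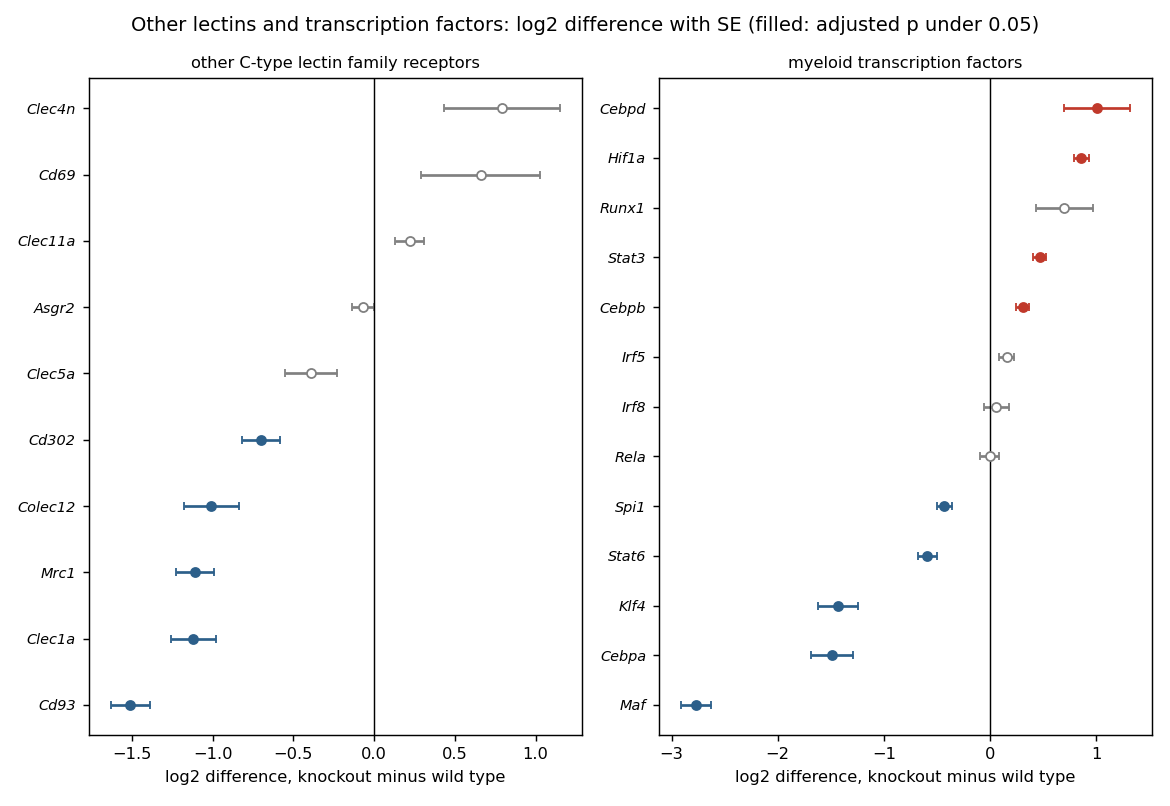
Log2 difference (knockout minus wild type, horizontal axis) with its SE for the measured genes of the other lectin list (left) and of the myeloid transcription factor list (right). Filled points passed the limma threshold (red higher, blue lower), and open grey points did not. No lectin outside the members rose past the threshold, and the transcription factors range from Maf at -2.77 to Cebpd at 1.01.

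Genes with the profile nearest to each member were found by the root mean square distance between their deviations from the wild-type mean over all 7 arrays. Clec4e was nearest to Rtp4 and Dhx58, both known as interferon-stimulated genes, and to Ago2, with distances of 0.06, 0.06 and 0.07. Rtp4 lay 1.85, 1.90, 0.78 and 0.76 above the wild-type mean in knockout replicates 1 to 4, beside 1.75, 1.88, 0.67 and 0.72 for Clec4e. These distances used the first Clec4e probe set alone. The second, whose knockout arrays lay nearer to each other, was not compared, so these neighbours may depend on the probe set. Clec4d was nearest to Chd2, Ssr1 and Zcchc4, at 0.04, 0.05 and 0.05. Clec4a3 was nearest to Cerk, Cd300a and Fcgr3 (0.10, 0.14 and 0.14), of which Fcgr3 encodes an activating Fc receptor. Clec4a2 was nearest to Timp2, Fam20c and Blnk (0.17, 0.18 and 0.20), and Clec7a to Lsp1, Car6 and Chchd10 (0.06, 0.11 and 0.13). Clec10a had no close match: its nearest genes were Rcbtb2, S1pr1 and Bmp2, at 0.48, 0.51 and 0.58. The distance favours genes whose change is of the same size, and it carries no test.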

How the data were processed

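Total RNA was labelled as biotinylated cRNA and hybridised to Affymetrix arrays, per the labels' protocols. The deposited values are normalized intensities for 19431 probe sets, and RMA is named without a version, per the submitters' processing notes. Their range showed a linear scale, so log2 was taken here. Of the probe sets 17335 had 1 gene symbol in the platform annotation, and the other 2096 were left out. For each of 9999 genes the probe set of highest average signal across the 7 arrays was taken. Of the members 5 had 1 such probe set and 1 had several. Groups came from the titles. The 4 knockout and 3 wild-type arrays were compared with limma 3.58.1 in R 4.3.3 (5 residual and 2.20 prior degrees of freedom), with Benjamini-Hochberg adjustment over all genes and a threshold of 0.05. The fit was tested on simulated data. Arrays have no read depth, and their number limits the precision.

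The members and lists were chosen with earlier results of these data known. Named were Gfi1, the members, 7 of their relatives and signalling genes where measured (Clec4n, Clec5a, Mrc1, Fcer1g, Tyrobp, Syk, Ptpn6) and Cebpb, the 5 largest changes past the threshold and the highest mean of each list, the highest mean of each marker list, and the 3 genes nearest to each member, leaving out model names. Necap1 and C3ar1 were named for their position, after their values were seen. Ccl22, the 1 dendritic cell marker called, and Itgax, the remaining measured one, were likewise named after their values were seen. So was Milr1 of the ITIM list. Replicate numbers did not pair the arrays: same-numbered arrays' deviations correlated at 0.12, -0.09 and 0.11. Alternatives were quantile normalization, median centring, a filter on dim genes, averaging all probe sets per gene, an added constant for the members, a replicate block, random blocks, and leaving out single arrays or either pair of knockout arrays. The NF-kappaB motif replaced a looser one, which had found no match in the members' promoters either.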

Additional observations from a re-analysis of the deposited data

How the results depend on the processing

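No member changed direction under any setting: over 15 or 16 alternatives Clec4e ranged from 0.69 to 1.82, Clec4d from 0.50 to 0.91, Clec7a from -1.96 to -1.78, Clec10a from -4.23 to -3.03, Clec4a2 from -2.66 to -1.45 and Clec4a3 from -2.76 to -1.80. With log2(intensity + 16) the differences shrank to -1.45 for Clec4a2, -1.80 for Clec4a3, -1.78 for Clec7a and -3.03 for Clec10a, since an added constant weighs most on dim signals. Without knockout replicates 1 and 2 they were -1.97 for Clec4a3, 0.50 for Clec4d, 0.69 for Clec4e and -3.15 for Clec10a, and without replicates 3 and 4 they were -2.76, 0.91, 1.82 and -4.23. Clec10a, Clec4a2 and Clec4a3 are not among the brighter genes left when those under the 40th percentile were dropped.

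Counts of genes called moved more. With random blocks 448 genes were higher and 456 lower, and without knockout replicates 3 and 4 there were 3406 and 3408. Leaving out 1 array gave 1379 to 2182 higher, the lowest without wild-type replicate 2 (1379) or 3 (1404). Random blocks left 1 other lectin lower, 2 ITAM genes higher and 4 lower, 1 ITIM gene higher and 5 lower, 1 output gene lower, and 1 transcription factor higher and 3 lower. Without dim genes 1 other lectin, 4 ITIM genes, 0 output genes and 3 transcription factors were lower and 7 output genes higher. That filter removed dim genes of these lists before the fit. Over all genes it left 1496 called higher and 1446 lower. Without knockout replicates 3 and 4 there were 2 other lectins, 7 ITAM and 6 ITIM genes higher, and without replicates 1 and 2 there were 1 other lectin and 7 transcription factors higher. Over all genes the fit without replicates 1 and 2 called 2768 higher and 2929 lower. Leaving out 1 array gave 0 to 1 other lectins, 2 to 4 ITAM genes (2 without wild-type replicate 2) and 1 to 2 ITIM genes higher (1 without knockout replicate 1 or 2 or wild-type replicate 3). The replicate block gave 1 other lectin higher; it changed no other count by over 1.5 times, and the numbers do not pair the arrays.

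Of 37 named genes outside the members, 10 lost their call with random blocks. These 37 leave out genes named only as nearest to a member and those named after their values were seen. Syk changed sign without knockout replicates 3 and 4 (0.97) and with the replicate block (0.28). It was -1.07 without replicates 1 and 2, and ranged from -0.40 to 0.30 with 1 array left out. Ighm changed sign as well, at 0.33 without replicates 3 and 4, -0.37 without replicates 1 and 2 and 0.09 with the replicate block. It ranged from -0.14 to 0.10 with 1 array left out, and Ptpn6 was at -0.04 without replicates 3 and 4. Apart from what the settings' construction shows, the cause of these shifts was not tested.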
